A study of Mus musculus with 2 samples.

Results

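Mesothelial cells of the elastase-injured mouse aorta were taken by a marker rule from single-cell RNA profiles of 2 libraries. A cell was counted as mesothelial when it held a UMI (unique molecular identifier, counting 1 captured transcript) of at least 3 of the 7 genes Msln, Upk3b, Lrrn4, Upk1b, Krt19, Wt1 and Krt8 and no UMI of the endothelial gene Pecam1. Of 16403 cells that passed the quality filter (at least 500 UMIs, at least 250 genes, at most 25% mitochondrial UMIs), 69 met the rule, 30 in the WT library and 39 in the Gsdme-KO library. The WT library came from C57BL/6J mice and the Gsdme-KO library from mice with a global deletion of Gsdme. Both groups carried an abdominal aortic aneurysm (AAA) induced with PPE (porcine pancreatic elastase), and the tissue was abdominal aorta. Strain of the deleted mice, age, time after PPE, the number of mice pooled in a library and the deleted part of Gsdme are not given in the sources used here. With 1 library per group no difference was tested. Each interval is at the 95% level and holds counting error alone, which limits every statement to this pair of libraries.

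The mesothelium is a flat epithelium of mesodermal origin that lines the body cavities and covers the organs within them. Its cells carry both epithelial features, such as keratins and tight junctions, and mesenchymal features, such as vimentin and matrix genes. They coat their surface with mucins, hyaluronan and lubricating proteoglycans, control fibrin on that surface through plasminogen activators and their inhibitors, and release chemokines when injured. In the abdomen this layer covers the tissue in front of the aorta.

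The genes that chose the cells are given first, as a description. In the WT members Upk3b, an uroplakin family protein, stood at 2189 CPM (the gene's UMIs scaled by the members' summed UMIs, on which 1 UMI equals 4.23 CPM in WT and 2.55 in Gsdme-KO) and Lrrn4, a leucine-rich repeat membrane protein, at 576 CPM. In the Gsdme-KO members they stood at 1473 and 294 CPM. Msln, which encodes the surface glycoprotein mesothelin, was at 385 and 411 CPM, and Upk1b, a tetraspanin uroplakin, at 893 and 796 CPM. Krt19 and Krt8, keratins of simple epithelia, were at 588 and 84.7 CPM in WT and at 431 and 105 CPM in Gsdme-KO. These genes were close to private to the members. The 30 WT members held 91.0% of all Msln UMIs, 90.7% of Upk3b and 92.5% of Lrrn4 in their library, and the 39 Gsdme-KO members held 85.2%, 87.3% and 85.2%. Wt1, a zinc-finger transcription factor of the mesothelium, was the exception. It stood at 626 and 531 CPM in members but also at 115 and 98.5 CPM in the fibroblast gate (Pdgfra, at least 3 other fibroblast genes, no Pecam1 or Ptprc), so members held 11.5% and 8.88% of its UMIs.

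Most members carried more markers than the rule asks for. In WT 8 members held all 7 markers, 10 held 6, 6 held 5, 4 held 4 and 2 held 3. In Gsdme-KO the numbers were 14, 10, 6, 6 and 3. Just outside the rule, 10 WT and 20 Gsdme-KO cells held exactly 2 markers, and 2 and 9 of these lay in the fibroblast gate. Cells with 2 markers had medians of 7 and 10 of the 30 mesothelial genes that the rule did not use, and cells with 3 markers had 11.5 and 11. These counts came at unequal depth. Cells with 2 markers had median depths of 5661 and 15080 UMIs, and the 2 and 3 cells with 3 markers had 798.5 and 2087. Among members, those with fewer markers were shallower. The median depth was 1612 UMIs in WT and 2253 in Gsdme-KO for members with 3 or 4 markers, and 8568 and 14836 UMIs for those with all 7. A further 1 WT and 6 Gsdme-KO cells reached 3 markers but held Pecam1 and were left out.

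**Figure D1:**
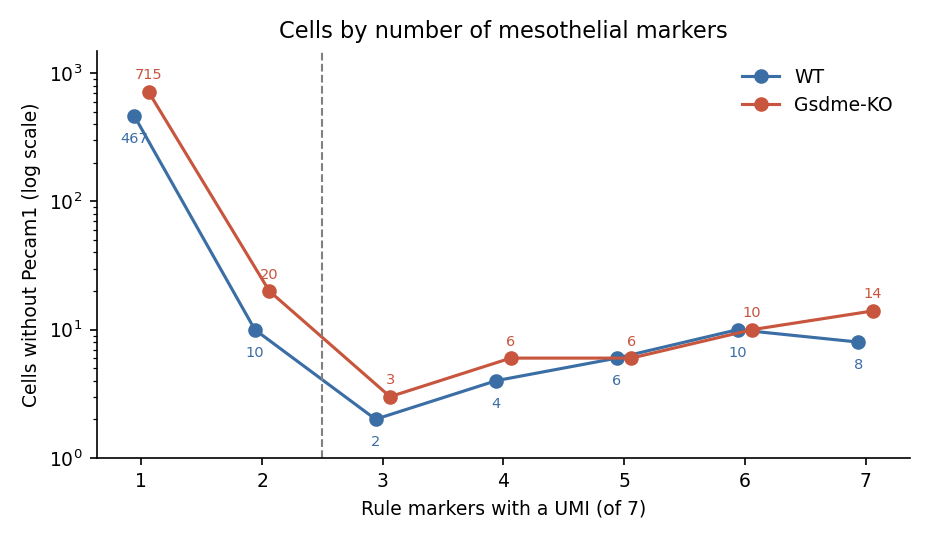
Number of cells without Pecam1 (y axis, log scale) by how many of the 7 rule markers they hold (x axis), in the WT (blue) and Gsdme-KO (red) libraries, with the count printed at each point. The dashed line is the minimum of the rule: counts drop to 2 and 3 cells at 3 markers and climb again to 10 cells at 6 markers in each library.

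Mesothelial markers that the rule did not use were also present. Of 30 further mesothelial genes, 27 had a UMI in members of each library, and Sbspon, Calb2 and Itln1 were at 0 in both. A member held a median of 21.5 of them in WT (range 6 to 27) and 24 in Gsdme-KO (7 to 27). Their summed level was 30753 and 33092 CPM, against 7257 and 7072 CPM in the fibroblast gate and 430 and 517 CPM in the macrophage gate (at least 3 of 5 macrophage genes and Ptprc).

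Muc16, the membrane mucin known as CA125, stood at 944 and 743 CPM in members and at no more than 1.28 CPM in the fibroblast, endothelial and macrophage gates. A Muc16 UMI was held by 26 of 30 and 33 of 39 members, and after each cell was thinned to 1000 UMIs by 65.5% (45.7 to 82.1) and 51.4% (34.4 to 68.1), against 0.0437% and 0.0427% of the macrophage gate. The median depth before thinning was 6346 and 10039 UMIs in members and 6817 and 7380 in that gate. Bnc1, the transcription factor basonuclin 1, stood at 144 and 105 CPM and was at 0 in the fibroblast and endothelial gates. The same contrast held for genes of transport and polarity. Lrp2, the endocytic receptor megalin, stood at 174 and 151 CPM and Pard6b, a cell polarity protein, at 88.9 and 91.9 CPM, both at 0 in the fibroblast and endothelial gates of both libraries. Cxadr, the tight junction receptor for coxsackievirus and adenovirus, was at 394 and 495 CPM against at most 2.20 CPM in those gates.

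Slc39a8, a zinc and manganese importer, stood at 1139 and 1879 CPM, and Fgf1, a fibroblast growth factor, at 1223 and 1159 CPM, against 25.1 and 22.6 CPM of Fgf1 in fibroblasts. Pkhd1l1 (1101 and 1067 CPM) and the membrane glycoprotein Gpm6a (2324 and 1715 CPM) were shared at a lower level with the endothelial gate, at 47.5 and 50.8 CPM and at 105 and 77.0 CPM. The other genes that ranked highest against all 3 gates were Nkain4, Myo5b, Cobl, Lgals7, Rspo1, Mpzl2, Tmem151a, Stk26, Myrf, Scn3b and Slpi. These genes rank high because the members were chosen by their co-expressed markers, so the contrast is a description.

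**Figure D2:**
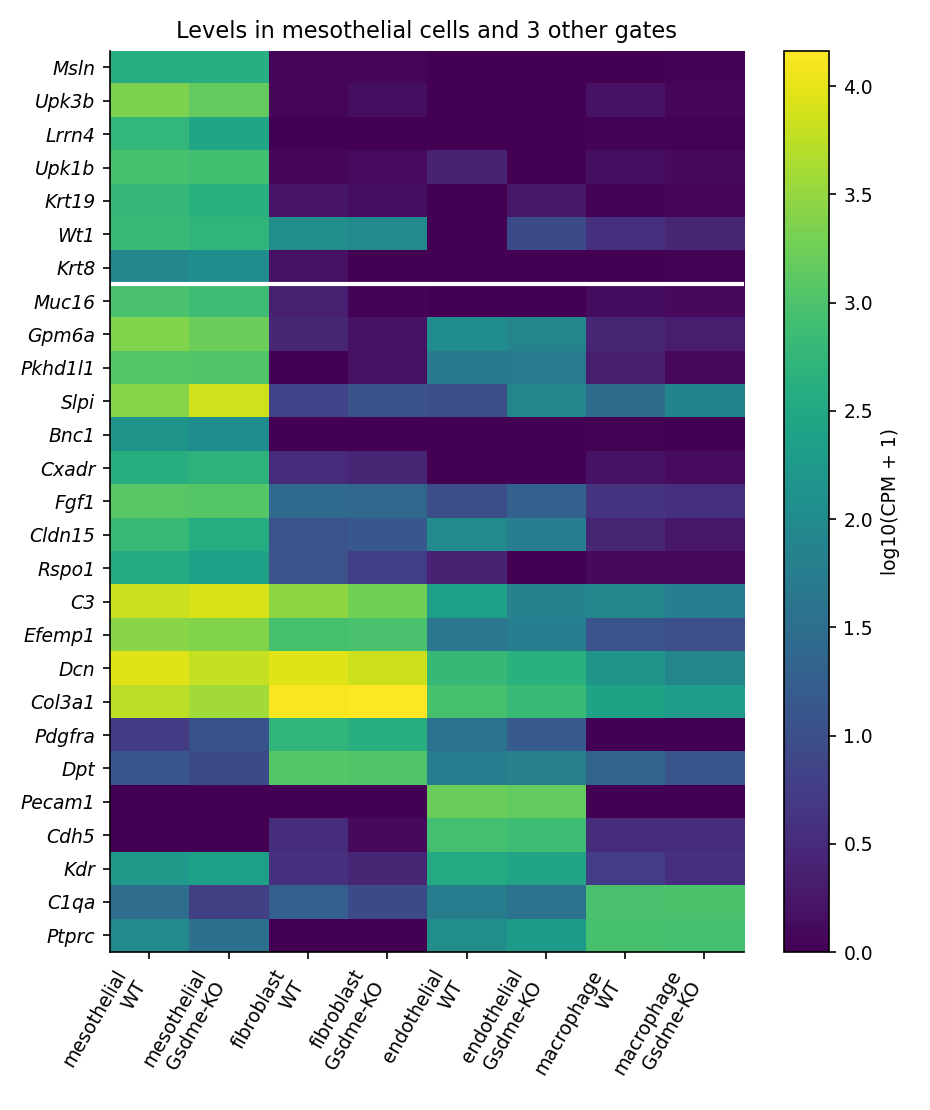
Level of 27 genes (rows; log10 of CPM plus 1, colour) in mesothelial, fibroblast, endothelial and macrophage gates of both libraries (columns). Genes above the white line are the rule markers; Muc16, Bnc1 and Cxadr stand out in the 2 mesothelial columns only, while C3, Dcn and Col3a1 are shared with fibroblasts.

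Members also carried a mesenchymal programme. Dcn, the small matrix proteoglycan decorin, stood at 9266 and 6179 CPM, close to the fibroblast gate of the same libraries at 9127 and 7104 CPM. Col3a1, a fibrillar collagen chain, stood at 5583 and 3903 CPM against 13219 and 14556 CPM in fibroblasts. C3, the central complement component, was at 6735 and 8249 CPM in members and at 2984 and 1918 CPM in fibroblasts. The basement membrane glycoprotein Nid1 ran the other way, at 258 and 227 CPM in members and 3860 and 2594 CPM in fibroblasts.

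Apart from fibroblast genes, markers of other cell types were at low summed levels, though many members held a UMI of one. A macrophage marker was held by 27 of 30 and 26 of 39 members, an endothelial one by 14 and 30 and a Schwann cell one by 17 and 23. The endothelial genes Cdh5, Flt1, Tie1 and Cldn5 were at 0 in all 69 members, while Kdr, a VEGF receptor, had a UMI in 13 of 30 and 30 of 39 members. Lymphatic endothelial markers summed to 0 and 5 UMIs, and 12 markers of urothelium and other epithelia to 1 and 0 UMIs. The 7 macrophage markers summed to 368 and 181 CPM in members, against 9979 and 10721 CPM in the macrophage gate, and 8 WT and 6 Gsdme-KO members held at least 3 of them. Fibroblast markers, 12 genes that include the shared matrix genes, were found in all 69 members and summed to 19231 and 13729 CPM. Smooth muscle markers summed to 38.1 and 89.3 CPM, neutrophil markers to 80.4 and 25.5 CPM, Schwann cell markers to 165 and 112 CPM, lymphocyte markers to 0 and 12.8 CPM and adipocyte markers to 4.23 and 0 CPM. The part of these cell types in the differences below was not tested beyond leaving out members with macrophage markers or Ptprc. Ptprc, the leukocyte antigen CD45, had a UMI in 3 and 4 members. No doublet caller was run. Results without these members are also given for many, not all, of the named calls that leaving them out ended. The libraries shared 73 barcodes, none of them a member.

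The share of mesothelial cells did not differ between libraries beyond counting error. It was 0.394% of kept cells in WT (0.266 to 0.562; 30 of 7619) and 0.444% in Gsdme-KO (0.316 to 0.607; 39 of 8784), a ratio of 1.13 (0.683 to 1.88). Over the mesothelial, fibroblast and endothelial gates together the ratio was 0.778 (0.471 to 1.30), and with every cell thinned to 1000 UMIs it was 0.840 (0.424 to 1.66). The interval held 1 under each of these denominators and depths. Gsdme itself, which encodes the pore-forming gasdermin E (minus strand of chromosome 6, overlapping Mpp6 on the other strand), had 0 UMIs in the members of both libraries. A count of 0 allows up to 12.7 and 7.66 CPM, and the fibroblast gate stood at 4.21 and 0.765 CPM, so a difference was not detectable in members at this depth.

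Gene levels were then compared between the libraries within mesothelial cells. The members summed to 236234 UMIs in WT and 391786 in Gsdme-KO, and the Gsdme-KO members were deeper (median 10039 UMIs, range 680 to 27656) than the WT members (6346, 545 to 22717). Of 3827 genes with at least 30 UMIs over both libraries, 156 were at least 2-fold higher in Gsdme-KO with an interval leaving out 1 (4.08%) and 227 were at least 2-fold lower (5.93%). A gene past this limit is said to be called below. The median log2 ratio of Gsdme-KO over WT over all 3827 genes was -0.14, and 60.3% of them had a ratio below 1. Under TMM scaling the median was 0.069, and 273 genes were called higher and 105 lower, so the balance between the directions depends on the scaling. TMM scaling also moves the list medians of junction, basement membrane, interstitial matrix, mesenchymal transition, retinoid, interferon, MHC class II, glycolysis, lipid, keratin and WNT genes from below 0 to above 0. It leaves those of MHC class I and the apical surface below 0. Ratios below are on the CPM scale.

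Some calls ended when members were left out or weighted equally. The 14 members holding at least 3 macrophage markers carried 44.1% of the WT and 17.0% of the Gsdme-KO UMIs. Without them 17 named genes were no longer called, of which 8 had fewer than 30 UMIs left and so were not measured. These 8 were Acta2, Aqp1, C1qc, Dsg2, Igfbp3, Parp14, Tap2 and Wdfy1. Leaving out the members that held Ptprc ended 6 calls, those of Acta2, C1qc, Ereg, Igfbp3, Parp14 and Serpinb2. With each member weighted equally (the mean of CPM per cell) 14 calls ended, those of Acta2, Bgn, Ccl7, Cxcl2, Egr1, Has1, Hspb1, Igfbp3, Igfbp6, Irf9, Met, Nfkbiz, Psmb8 and Tgfb2.

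**Figure D3:**
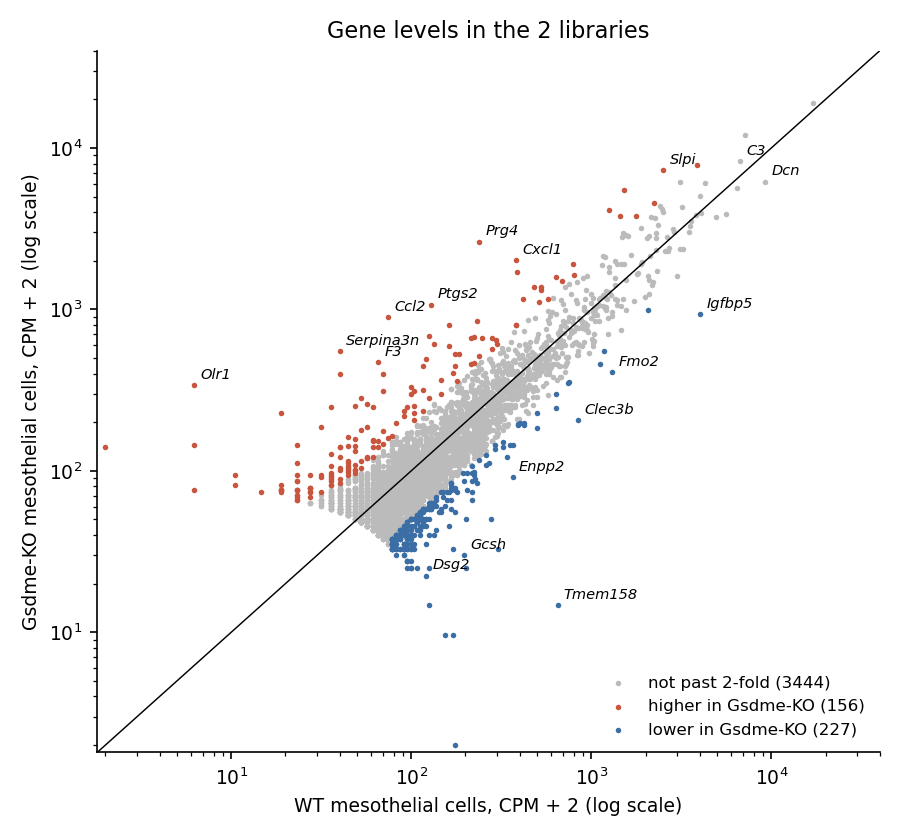
Level of each of 3827 genes in WT (x axis) and Gsdme-KO (y axis) mesothelial cells, as CPM plus 2 on log axes, with the line of equal level. Red points are the 156 genes called higher and blue points the 227 called lower in Gsdme-KO; Prg4, Slpi and Cxcl1 combine a high level with a high ratio, and Tmem158 lies farthest below the line among the labelled genes.

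Secreted surface and antimicrobial proteins were among the genes with the largest differences. Slpi, a secreted inhibitor of leukocyte elastase, ranged from 0 to 14392 CPM per cell in WT (median 671) and from 190 to 25039 CPM in Gsdme-KO (median 5446). Summed over members it stood at 2510 CPM in WT against 7279 CPM in Gsdme-KO (ratio 2.90, 2.65 to 3.17). Single cells of the libraries overlapped widely, but at full depth 5 WT members and no Gsdme-KO member lacked Slpi. After thinning, 17 of 29 WT and 32 of 37 Gsdme-KO members held a Slpi UMI. Prg4, the lubricating proteoglycan lubricin, had a UMI in 10 of 30 WT and 34 of 39 Gsdme-KO members. Its median per cell was 0 CPM in WT (highest 2874) and 1961 CPM in Gsdme-KO (highest 8268), and the summed level was 237 against 2629 CPM (ratio 11.1, 8.47 to 14.8). After thinning, 6.90% of WT (0.846 to 22.8) and 64.9% of Gsdme-KO members (47.5 to 79.8) held a Prg4 UMI, against 0.656% and 1.32% of the macrophage gate. The thinned fibroblast gate had 23.05% and 38.73%, above the members in WT and below them in Gsdme-KO. In fibroblasts Prg4 stood at 526 and 1133 CPM, a ratio of 2.15. The difference between the ratios in the 2 cell types has no test.

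Lcn2, an iron-scavenging antimicrobial protein, stood at 67.7 and 393 CPM (ratio 5.80, 3.46 to 10.4). Of 8 measured genes of antimicrobial and acute-phase response, 6 were above and 2 below a ratio of 1, with a median log2 ratio of 1.04 against -0.14 over all genes. The shares over all genes were 39.7% above 1, 4.08% called higher and 5.93% called lower. Lcn2, Slpi, Tnfaip3 and Nfkbiz were called higher and Lyz2, the macrophage-rich lysozyme, lower. Nfkbiz and Tnfaip3, feedback regulators of NF-kB signalling, were at 521 and 1381 CPM and at 144 and 362 CPM. In fibroblasts Nfkbiz stood at 1061 and 965 CPM.

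Chemokines and cytokines had the highest median among the pathway lists with at least 4 measured genes. Of 10 measured members 9 had a ratio above 1 and 7 were called higher (Ccl2, Ccl7, Cxcl1, Cxcl2, Cxcl10, Il6 and Csf1), with a median log2 ratio of 1.36. Over all measured genes 39.7% had a ratio above 1, 4.08% were called higher and the median log2 ratio was -0.14. Ccl2, which attracts monocytes, stood at 72.0 and 891 CPM (ratio 12.4, 7.62 to 21.5). A Ccl2 UMI was held by 7 of 30 and 26 of 39 members, with per-cell medians of 0 and 207 CPM and highest values of 537 and 4631 CPM. After thinning the shares were 3.45% (0.0873 to 17.8) and 29.7% (15.9 to 47.0). They were 28.9% and 54.8% in fibroblasts, 26.0% and 44.4% in macrophages and 12.6% and 17.5% in endothelial cells, so none of these gates lacked the gene and the part of free RNA in these shares was not tested. Cxcl1, which attracts neutrophils, stood at 381 and 2022 CPM (5.31, 4.26 to 6.67), and its per-cell medians were 0 and 883 CPM. Il6, an acute-phase cytokine, was at 55.0 and 184 CPM (3.34, 1.83 to 6.57). Cxcl2, a related neutrophil chemokine, stood at 212 and 666 CPM when summed (3.15, 2.32 to 4.35), but 1 Gsdme-KO cell held 78 of its 261 UMIs. Its UMIs were found in 25 of 30 WT and 24 of 39 Gsdme-KO members, with the higher per-cell median in WT (239 against 115 CPM). After thinning the Cxcl2 shares were 27.6% and 27.0%, and with each member weighted equally its log2 ratio was 0.65. The Ccl7 ratio was 2.58, and its log2 ratio was 1.02 with an interval holding 0 without the members that held 3 macrophage markers.

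Members holding several of the chemokine genes were counted, and whether the genes occur together beyond their separate rates was not tested. At full depth 73.3% of WT and 82.1% of the deeper Gsdme-KO members held at least 3 of the 10 genes. After thinning, 3 of 29 WT members (10.3%, 2.19 to 27.4) and 17 of 37 Gsdme-KO members (45.9%, 29.5 to 63.1) did so, and in thinned fibroblasts the shares were 55.5% and 68.2%. The summed chemokine level in members, 1659 and 5432 CPM, was below that of fibroblasts in both libraries, at 8187 and 13555 CPM. Ccl2 and Cxcl1 were also higher in the Gsdme-KO fibroblasts, with ratios of 2.97 and 1.91.

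**Figure D4:**
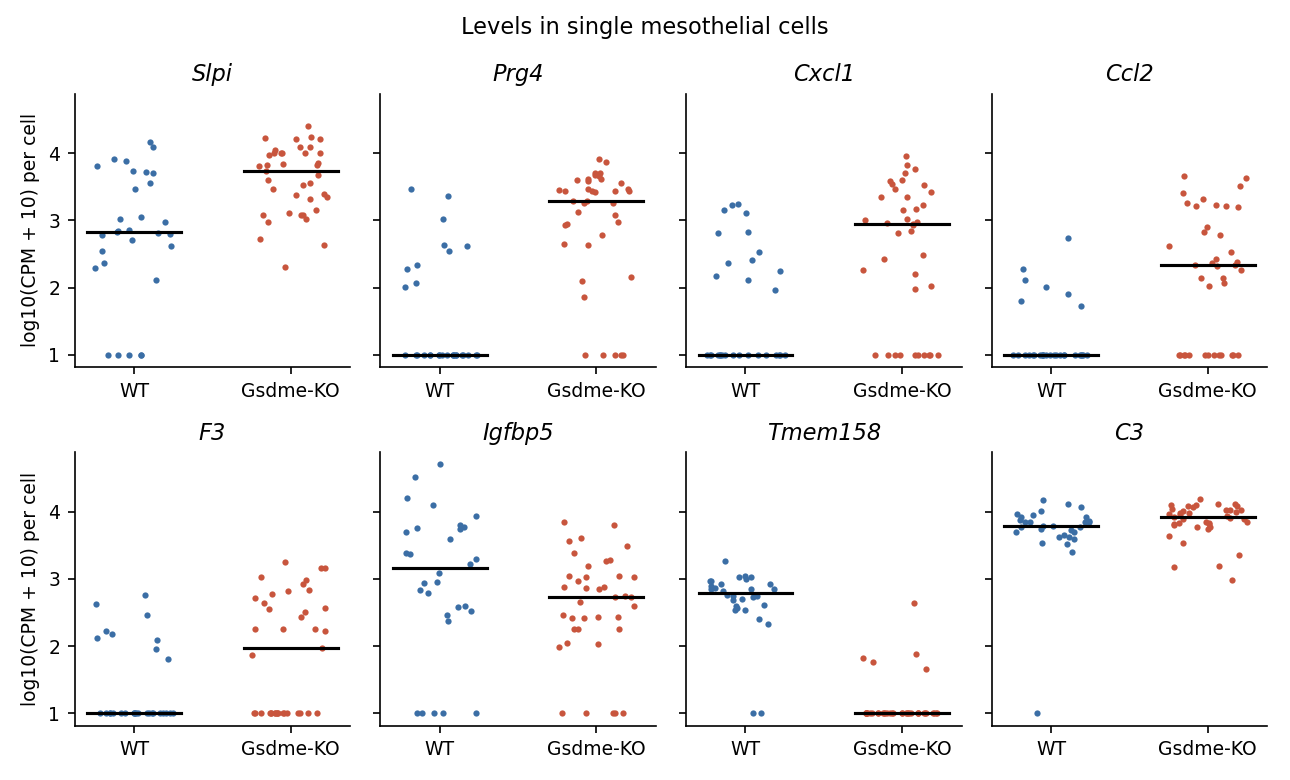
Level of 8 genes in each of 30 WT (blue) and 39 Gsdme-KO (red) mesothelial cells, as log10 of CPM plus 10 (y axis); each point is a cell, the bar is the median and 1 on the axis is a cell with no UMI. Prg4, Cxcl1 and Ccl2 have a median at no UMI in WT and above it in Gsdme-KO, Tmem158 shows the opposite, and C3 has similar medians.

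Genes that start coagulation and genes that act on plasminogen activation were both among the higher calls. F3, tissue factor and the starter of coagulation, stood at 63.5 and 467 CPM (ratio 7.36, 4.34 to 13.4). Serpinb2, an inhibitor of plasminogen activators, had 0 UMIs in WT and 54 in Gsdme-KO. Of those 54 UMIs 45 came from 1 cell and the rest from 4 others, and without the top cell, or without the members that held Ptprc, 9 were left and the gene was not measured. Plat, the tissue plasminogen activator, was also called higher. Of 9 measured members of the list 7 had a ratio above 1, 4 were called higher and none lower, with a median log2 ratio of 0.54. Over all measured genes 39.7% had a ratio above 1 and 4.08% were called higher.

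Proteases, their inhibitors and lipid genes split between the directions. Among 18 measured proteases and inhibitors 6 were called higher and 1 lower, with a median log2 ratio of 0.034. The shares over all measured genes were 4.08% higher and 5.93% lower. Serpina3n, a serine protease inhibitor with close copies in the genome, stood at 38.1 and 551 CPM (14.5, 7.48 to 32.1), and Adamts1, an aggrecan- and versican-cleaving protease, at 38.1 and 398 CPM (10.4, 5.37 to 23.3). Timp1, Timp3, Mmp19 and Slpi completed the higher calls and Mmp23 was the lower one. Ptgs2, the inducible cyclooxygenase COX-2, stood at 127 and 1067 CPM (8.40, 5.80 to 12.6) and was the one call among 8 lipid and prostanoid genes. Ptgis, the prostacyclin synthase, stood at 876 and 855 CPM.

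Olr1, the oxidised LDL receptor LOX-1, had 1 UMI in WT and 132 UMIs over 21 of 39 cells in Gsdme-KO (ratio 79.6, 14.0 to 3167). Gem, a small GTPase of the RGK group, had 1 and 56 UMIs (33.8, 5.82 to 1357). Trib1, a pseudokinase, stood at 161 and 799 CPM (4.97, 3.54 to 7.15) and Fbxo33, an F-box protein, at 123 and 684 CPM (5.57, 3.79 to 8.48). In fibroblasts the ratios of Gem, Trib1 and Fbxo33 were 1.10, 0.987 and 1.09, and that of Olr1 was 1.47 (1.18 to 1.86). After thinning, Olr1 was found in 0 of 29 and 8 of 37 members (21.6%), against 13.1% and 11.3% of macrophages. Among the proteases and inhibitors above, Serpina3n was also higher in Gsdme-KO fibroblasts (406 and 786 CPM), as was Adamts1 (517 and 697 CPM).

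The 12 genes that ranked first among those called higher were searched for sites of 3 stimulus-responsive factors. A promoter entry was found for 7 of the 12 (Olr1, Serpina3n, Ptgs2, Adamts1, F3, Cxcl1 and Fbxo33) in the RefSeq table of build GRCm38.p6, and the 250 bases before the transcription start were read on both strands. An AP-1 site, TGANTCA, was found in 2 of the 7 and in 6.75% of 32851 promoters of the same length. An NF-kB site (GGG and TTTCC with any 2 bases between) was found in 2 of the 7 and in 1.41% of all promoters, and the cAMP response element TGACGTCA in 0 of the 7 and 1.55%. The motifs did not overlap in the windows shown. A match is a description of letters and shows no binding. The 4 windows that held a match, those of Cxcl1, F3, Olr1 and Serpina3n, are shown with the matches in capitals. The Cxcl1 window is chr5:90890995-90891244 on the plus strand (NF-kB), the F3 window chr3:121723287-121723536 on the plus strand (AP-1), the Olr1 window chr6:129507166-129507415 on the minus strand (AP-1) and the Serpina3n window chr12:104406458-104406707 on the plus strand (NF-kB).
Cxcl1: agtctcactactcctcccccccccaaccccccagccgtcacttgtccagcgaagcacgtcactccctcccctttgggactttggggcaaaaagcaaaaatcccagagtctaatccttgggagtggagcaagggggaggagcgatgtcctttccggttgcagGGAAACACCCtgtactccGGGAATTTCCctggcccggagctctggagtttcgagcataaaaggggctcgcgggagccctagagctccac
F3: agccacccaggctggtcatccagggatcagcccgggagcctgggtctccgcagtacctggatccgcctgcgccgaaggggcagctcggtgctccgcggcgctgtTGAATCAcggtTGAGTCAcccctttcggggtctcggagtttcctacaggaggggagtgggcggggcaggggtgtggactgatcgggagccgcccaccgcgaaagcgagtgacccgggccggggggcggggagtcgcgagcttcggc
Olr1: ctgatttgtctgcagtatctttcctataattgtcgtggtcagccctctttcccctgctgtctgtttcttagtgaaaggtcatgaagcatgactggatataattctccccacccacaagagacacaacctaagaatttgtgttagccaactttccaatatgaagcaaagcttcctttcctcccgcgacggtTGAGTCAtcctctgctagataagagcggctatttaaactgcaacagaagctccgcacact
Serpina3n: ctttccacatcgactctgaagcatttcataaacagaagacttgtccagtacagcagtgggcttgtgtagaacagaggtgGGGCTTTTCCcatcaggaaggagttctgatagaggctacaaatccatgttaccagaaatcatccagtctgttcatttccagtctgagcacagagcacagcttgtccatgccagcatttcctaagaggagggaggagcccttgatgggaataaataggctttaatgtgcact

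Of 17 measured immediate early genes, which cells switch on within minutes of a stimulus, 7 were called higher in the Gsdme-KO members and none lower. The other 10 were not called, 16 of the 17 had a ratio above 1, and the median log2 ratio was 0.94. Over all measured genes 39.7% had a ratio above 1 and 4.08% were called higher. Zfp36, an mRNA-destabilising protein, stood at 1249 and 4120 CPM (3.30, 2.91 to 3.75) and Ier3 at 161 and 592 CPM (3.68, 2.60 to 5.33). Fosl1, an AP-1 subunit, had 29.6 and 184 CPM. Fos and Egr1 were the most abundant, at 3111 and 6118 CPM and at 3861 and 7785 CPM. Fos was not called (log2 ratio 0.98), though it was under 5 of 12 alternatives. The log2 ratio of Egr1 was 1.01, and its call ended without the members holding 3 macrophage markers (0.58), with each member weighted equally (0.58), without the deepest members (0.92) and after thinning (0.48). The summed level of the list was 16183 and 34044 CPM in members. In the same libraries it was 30781 and 25505 CPM in fibroblasts, 20601 and 21515 CPM in endothelial cells and 22924 and 22745 CPM in macrophages. Tissue was digested with agitation at 37 degrees, and the part of cell handling in these levels was not tested.

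Heat shock and unfolded protein genes were shifted less. Of 15 measured 12 had a ratio above 1, against 39.7% of all genes, with a median log2 ratio of 0.44. Hspb1, a small heat shock protein, was the only call (1778 and 3798 CPM). Hspa1b, an inducible HSP70 with a near-identical copy in Hspa1a, stood at 1507 and 2981 CPM and Hspa5, the ER chaperone BiP, at 3183 and 4306 CPM. The median mitochondrial share of members was 1.98% in WT and 3.75% in Gsdme-KO, and its part in these levels was not tested.

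Calls among growth factor, matrix and transition genes differed by list. Over all measured genes 4.08% were called higher and 5.93% lower, and the median log2 ratio was -0.14. Among 14 measured growth factors and receptors 4 were called higher and none lower, with a median log2 ratio of 0.20. These were Hbegf, an EGF receptor ligand (102 and 309 CPM), Vegfa (38.1 and 138 CPM), Met, the hepatocyte growth factor receptor (102 and 225 CPM), and Ereg. Vegfa rested on 9 and 54 UMIs, and after thinning 2 of 29 WT and 2 of 37 Gsdme-KO members held it. The log2 ratio of Ereg, 1.40, was 0.75 without the members holding 3 macrophage markers and 1.11 without those holding Ptprc, with intervals holding 0. Among 12 genes of mesenchymal transition (median -0.12) 3 were called higher, Tgfb2 and Acta2 among them, and S100a4 was called lower. Acta2, smooth muscle actin, rested on 5 and 26 UMIs, and its log2 ratio of 1.65 was 1.39 without the members holding Ptprc, with an interval holding 0. Tgfb2 rested on 38 UMIs, of which 17 were left without its top cells. Among 20 interstitial matrix genes (median -0.10) Thbs1, thrombospondin 1 (114 and 444 CPM), and Bgn, biglycan (292 and 643 CPM), were called higher. Of the Thbs1 UMIs in Gsdme-KO 64 came from 1 cell. After thinning, 20.7% of WT and 24.3% of Gsdme-KO members held a Thbs1 UMI. None of 11 basement membrane genes (median -0.18) was called.

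Among the lower genes Tmem158 had the smallest ratio of the 12 that ranked first. This transmembrane protein, first described as induced by Ras, had 153 UMIs over 28 of 30 WT cells (648 CPM) but 5 UMIs over 5 of 39 Gsdme-KO cells (12.8 CPM), giving a ratio of 0.0197 (0.00631 to 0.0470). Per-cell levels ran from 0 to 1835 CPM with a median of 606 in WT and from 0 to 432 CPM with a median of 0 in Gsdme-KO. After thinning, 31.0% of WT (15.3 to 50.8) and 2.70% of Gsdme-KO members (0.0684 to 14.2) held a UMI, against 0.175% and 0.171% of macrophages. The other gates did not show this contrast. Tmem158 stood at 41.2 and 33.8 CPM in fibroblasts and at 117 and 124 CPM in endothelial cells.

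Igfbp5, a secreted binding protein of insulin-like growth factors, was the most abundant of the 12. It ranged from 0 to 50380 CPM per cell in WT (median 1426) and from 0 to 7057 CPM in Gsdme-KO (median 535), and the summed level was 4013 against 937 CPM (ratio 0.233, 0.206 to 0.264). Igfbp6 stood at 2053 and 983 CPM. Both were less different in fibroblasts, at 907 and 767 CPM for Igfbp5 and 404 and 367 CPM for Igfbp6. The log2 ratio of Igfbp6 was -1.06, and it was -0.85 under TMM scaling and -0.78 without the members holding 3 macrophage markers. Of 14 measured genes of WNT, BMP and IGF signalling 2 were called lower, these 2, and 2 higher, with a median log2 ratio of -0.0084. The shares over all measured genes were 5.93% lower and 4.08% higher. Sfrp2, a secreted WNT modulator, was called higher at 50.8 and 281 CPM, with 34 of its Gsdme-KO UMIs in 1 cell. After thinning, 10.3% of WT and 21.6% of Gsdme-KO members held a Sfrp2 UMI, against 49.7% and 62.0% of fibroblasts. The thinned log2 ratio of Sfrp2 was 1.52 on 14 UMIs, with an interval holding 0. Igfbp3 was called on 6 and 28 UMIs, and its log2 ratio of 1.49 was 0.18 on 19 UMIs without the members holding Ptprc.

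Clec3b, the plasminogen-binding tetranectin, stood at 838 and 204 CPM (0.244, 0.185 to 0.317) and was lower in Gsdme-KO fibroblasts too (653 and 227 CPM). Enpp2, the lysophosphatidic acid-producing enzyme autotaxin, stood at 364 and 89.3 CPM (0.245, 0.161 to 0.367) and Fmo2, a flavin monooxygenase, at 1300 and 406 CPM (0.312, 0.256 to 0.379). Gcsh, a subunit of the glycine cleavage system, was at 195 and 28.1 CPM and had a fibroblast ratio of 1.44. Iigp1, an interferon-induced GTPase, was at 275 and 48.5 CPM. Tpm3-rs7, a copy related to the tropomyosin gene Tpm3 whose reads may be shared with it, stood at 300 and 30.6 CPM in members. It was also lower in Gsdme-KO in the other gates, at 175 and 30.1 CPM in fibroblasts, 389 and 64.3 CPM in endothelial cells and 426 and 62.3 CPM in macrophages. Wdfy1, an endosomal adaptor protein, was likewise lower in members (29 and 9 UMIs) and in fibroblasts (77.1 and 16.0 CPM). Without the members holding 3 macrophage markers Wdfy1 and Parp14 (25 and 9 UMIs) kept 29 and 16 UMIs, and their log2 ratios of -2.42 and -2.20 became -2.45 and -2.04. Basp1 (500 and 181 CPM) went from -1.46 to -0.91 and was not called.

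Of 15 measured junction genes Cgn, Cgnl1 and Dsg2 were called lower and none higher, against 5.93% and 4.08% of all genes. The Cgn call lay close to the 2-fold limit, on 25 and 20 UMIs with a ratio of 0.482 (0.254 to 0.905). A ratio below 1 was found for 10 of the 15, near the 60.3% of all genes, and the list median of -0.20 lay near that of all genes. Dsg2, a desmosomal cadherin at 0 in the endothelial and macrophage gates, stood at 118 and 20.4 CPM (0.172, 0.0678 to 0.388) and Cgnl1, which encodes the junction protein paracingulin, at 339 and 120 CPM (0.354, 0.242 to 0.514). Without the members holding 3 macrophage markers Dsg2 kept 17 UMIs, and its log2 ratio of -2.54 became -1.81. Cldn15, a claudin, stood at 665 and 380 CPM and was not called. Krt7 was lower at 157 and 63.8 CPM while Krt18 stood at 161 and 207 CPM, and Krt7 was not called under the same exclusion, with a log2 ratio of -0.42. Among 15 genes of the apical surface and glycocalyx the median log2 ratio was -0.43, with Prg4 and the hyaluronan synthase Has1 (220 and 462 CPM) called higher and the water channel Aqp1 lower (36 and 3 UMIs). Under that exclusion Has1 had a log2 ratio of 0.88 and Aqp1 kept 26 UMIs in WT and 1 in Gsdme-KO.

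**Figure D5:**
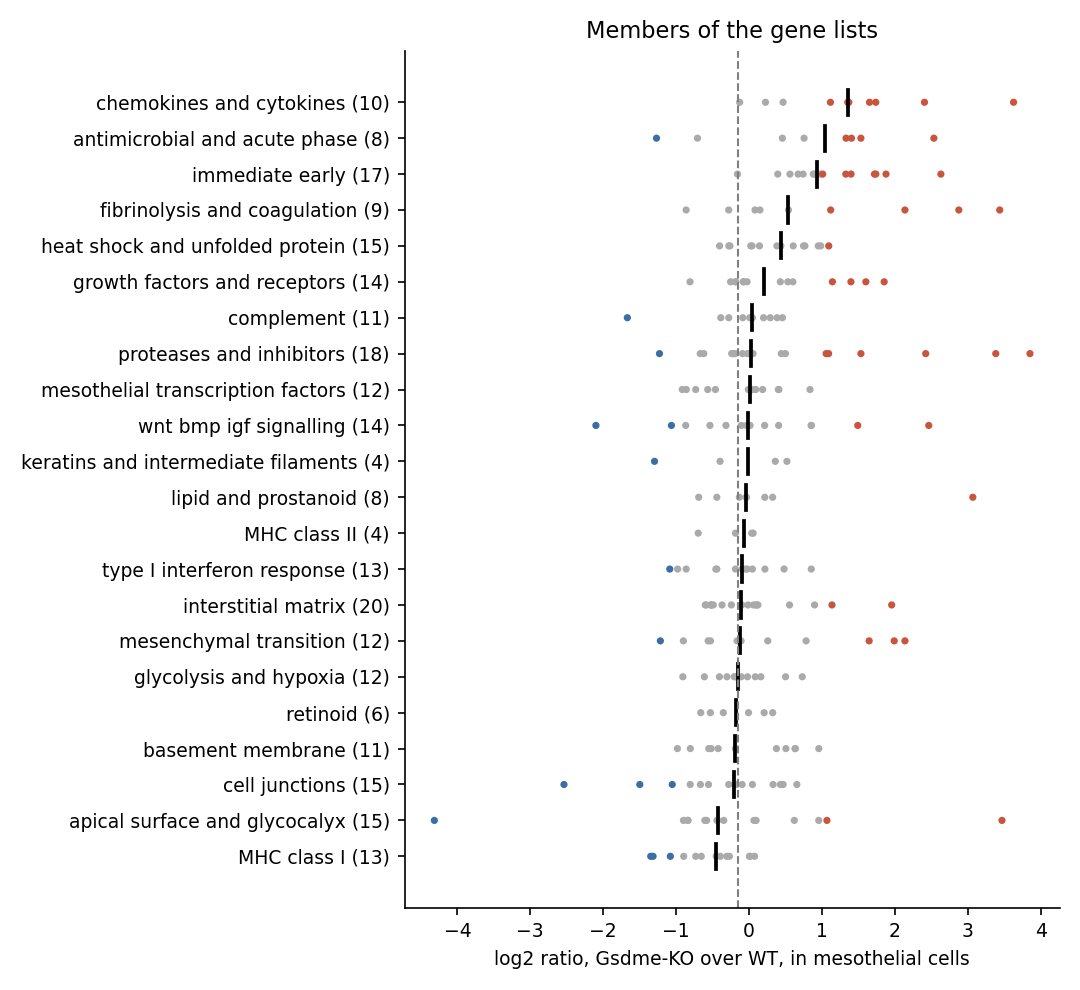
log2 ratio of Gsdme-KO over WT (x axis) for the measured members of each gene list (rows, number of members in brackets; red called higher, blue called lower, grey not called). Black bars are list medians and the dashed line is the median of all genes, -0.14; chemokines and cytokines lie at the top with 1.36 and MHC class I at the bottom with -0.45.

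Antigen presentation genes were spread over the 2 classes. Of 13 measured MHC class I genes 10 had a ratio below 1, Psmb8, Tap2 and H2-Q4 were called lower, and the median log2 ratio was -0.45. Over all measured genes 60.3% had a ratio below 1, 5.93% were called lower and the median was -0.14. H2-K1 stood at 4902 and 3734 CPM, H2-D1 at 3217 and 2356 CPM and B2m, their shared light chain, at 3822 and 3862 CPM. Psmb8, an immunoproteasome subunit, was at 178 and 71.5 CPM, and without the members holding 3 macrophage markers its log2 ratio was -0.65 with an interval holding 0. Tap2 then kept 25 UMIs and a log2 ratio of -1.41. The H2-Q4 call lay close to the 2-fold limit, on 28 and 22 UMIs with a ratio of 0.474 (0.258 to 0.859). MHC class II genes were found in many members, with at least 3 of the 7 genes in 16 of 30 and 33 of 39 cells. Their summed level was 2616 and 2343 CPM, against 369 and 173 CPM in fibroblasts. It was 2250 and 1959 CPM in the endothelial gate and 11432 and 11954 CPM in the macrophage gate. The fibroblast gate left out cells with Ptprc, which the mesothelial rule did not. One WT member of 16574 UMIs with 6 rule markers held 48.1% of the WT class II UMIs, along with 19 of 22 Ptprc UMIs and all 41 UMIs of the dendritic gene Cd209a. Without it the WT level was 1461 CPM. The median log2 ratio of the 4 measured class II genes was -0.073, and it was 1.05 without all members holding 3 macrophage markers, when Cd74 and H2-Eb1 were called higher. Cd74 was also called higher after thinning.

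The remaining lists gave few calls. Over all measured genes 39.7% had a ratio above 1, 4.08% were called higher and 5.93% lower. None of 12 mesothelial transcription factors (median 0.020), 6 retinoid genes (-0.18) and 12 glycolysis and hypoxia genes (-0.14) was called. Gata6, a zinc-finger factor, stood at 440 and 470 CPM, and Aldh1a1, a retinoic acid-producing enzyme, at 906 and 628 CPM. Of 11 complement genes 7 had a ratio above 1 and the macrophage-rich C1qc was the one call, lower on 23 and 12 UMIs. Its log2 ratio of -1.67 was -1.45 on 19 UMIs without the members holding 3 macrophage markers. Of 13 type I interferon genes 4 had a ratio above 1 and Irf9, which overlaps Rnf31 on the same strand, was the one call (136 and 63.8 CPM). Irf9 was not called under TMM scaling (-0.87), without the members holding 3 macrophage markers (-0.96) or with each member weighted equally (0.061). Of 4 keratin and intermediate filament genes Krt7 was the one call, and of 3 measured genes of cell death none was called. Cell cycle genes were sparse, with 1 of 20 listed genes measured and at least 2 of 13 phase genes in 2 of 30 WT and 4 of 39 Gsdme-KO members, or 1 of 29 and 0 of 37 after thinning. At full depth 1 of the 2 WT members was the cell of 16574 UMIs that held Cd209a and 19 Ptprc UMIs. It held 19 UMIs of Mki67 and 19 of Top2a.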

How the data were processed

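Cells came from collagenase I and DNase I digests captured on BD Rhapsody, per the labels' protocols. The authors deposited 1 matrix of whole-number counts per library, not normalised; that they are UMIs follows from the platform and STARsolo. CASAVA 1.8, STARsolo and mm10 are named in the submitters' processing notes; for the gene annotation they hold no entry, and it is not given in these sources. Libraries held 38988898 (WT) and 52532964 (Gsdme-KO) UMIs.

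Positions came from GENCODE M21, which held 31107 of 31253 feature IDs. UMIs were summed over members per library and divided by the sum (CPM). Ratios carry exact conditional binomial intervals and shares Clopper-Pearson intervals, at 95%. A count of 0 was set at a floor of 3 counts per library. Genes with at least 30 UMIs over both libraries were measured. Called meant a ratio of at least 2 or at most 0.5 with an interval leaving out 1. Python 3.11.15, numpy 2.4.6, scipy 1.17.1 and pandas 2.3.3 were used; edgeR 4.0.16 gave TMM factors only. The ratio calculation was tested on simulated data. Prg4 (with Tpr), Ccl2 (with Gm17268), Wdfy1 (with Mrpl44) and Fosl1 (with Ccdc85b) overlap genes on the opposite strand, and whether counting used strand is not stated, so such UMIs are uncertain.

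Named genes were the rule markers and detected mesothelial markers; the 12 called genes each way that ranked first by the interval end nearest 1, held by at least 25% of members, with at most 25% of UMIs in 1 cell and at least 10% of the level in other gates; the 20 genes highest against the other gates after adding 5 CPM; and up to 5 genes per list. The members, 24 gene lists and 12 marker lists were chosen with earlier results of these data known. Called genes beyond the rule are named to complete counts. Some items the rule names are not reported here. Alternatives covered marker minimum, macrophage-marker or Ptprc members, depth, mitochondrial limit, scaling, cell weighting, thinning, the count filter and single cells.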

Additional observations from a re-analysis of the deposited data

How the results depend on the processing

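No paired analysis was possible because each group has 1 library. The number of genes called higher was 156 and became 273 under TMM factors, 278 under median-of-ratios factors, 273 with the mean of CPM per cell and 27 of 325 measured genes after thinning to 1000 UMIs. The number called lower was 227 and became 105 under both scaling factors, 16 after thinning and 480 of 7392 genes with a minimum of 10 UMIs. It was 121 when, as chosen after seeing the data, each gene's top member was left out of each library. Fewer genes were measured after thinning and without the top members (3194 against 3827), and more with the lower minimum. Each of the 2 scalings multiplied every ratio by 1 common factor. The median log2 ratio over all genes went from -0.14 to 0.069 under TMM and 0.070 under median-of-ratios factors. For the mean of CPM per cell and the top-member setting the cause was not tested. The log2 ratio of Irf9 was -1.09 and 0.061 with the mean of CPM per cell. Clec3b, Cxcl1, Fmo2, Ier3, Igfbp5, Prg4, Slpi and Zfp36 were among the genes called under all 12 alternatives. Thinning left 139 of 158 named genes with more than 3 UMIs in at least 1 library, of which 67 had a log2 ratio outside the interval given by all UMIs. List medians of chemokines (0.69 to 1.59), antimicrobial (0.72 to 1.42) and immediate early genes (0.54 to 1.26) stayed above 0 and those of MHC class I (-0.55 to -0.23) below 0 wherever they could be computed. The share of mesothelial cells kept an interval holding 1 under every alternative, the denominator of 3 gates having been added after seeing the data. At this depth 1 UMI equals 4.23 (WT) and 2.55 CPM (Gsdme-KO), so genes near 30 UMIs carry wide intervals.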

Other observations

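Clec3b and Tmem158, both among the 12 first-ranked lower genes, lie on chromosome 9 with 101621 bases between them (mm10), a proximity seen after their values were known. Of the other genes within 500000 bases that were measured, Sacm1l had a ratio of 0.469 (0.216 to 0.998), Lars2 0.655 (0.430 to 1.00), Zfp445 0.791 (0.394 to 1.62) and Zdhhc3 1.13 (0.684 to 1.92) in mesothelial cells. In fibroblasts the ratio was 0.347 for Clec3b and 0.821 for Tmem158.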
